A study of Mus musculus with 9 samples.

Results

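The transcriptomes compared here come from 5TGM1-Cas9 cultures that carried gRNAs against 5 hexose transporter genes, *Slc2a1*, *Slc2a3*, *Slc2a5*, *Slc2a6* and *Slc2a8*, and from cultures that carried an *Slc2a1* gRNA alone. The samples were chosen by the population named in their labels, which gave 3 *Slc2a1/3/5/6/8* gRNA and 3 *Slc2a1* gRNA samples, 6 of the 9 in the series. The other 3 samples carried a control gRNA against *Rosa26* and served as a reference. 5TGM1 is a mouse multiple myeloma line, a transformed counterpart of plasma cells, and all 9 samples constitutively expressed Cas9 from a lentivirus. The *Slc2a1* gRNA was introduced into these cells with a single lentivirus and drug selection. The *Slc2a1/3/5/6/8* gRNA cultures have a longer history. Their parent line already carried the gRNAs against the other 4 genes, each on a vector with its own fluorescent marker (dsRed, mMaroon, mCherry or tagBFP), and had been enriched by flow sorting and grown up before it received the *Slc2a1* vector. The populations therefore differed in 4 further gRNAs, 4 further vectors, a sort and an expansion, and in this design these cannot be told apart. Both kinds of culture held mixtures of edited and unedited alleles, so each value is an average over such a mixture, and in bulk RNA fewer cells that express a gene and less RNA per cell cannot be told apart. The replicates are described as biological, but how the cultures of one population were separated is not given in the sources used here.

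The *Slc2* genes encode the GLUT family of facilitative hexose transporters, of which GLUT1, encoded by *Slc2a1*, carries glucose into most proliferating cells. GLUT3, GLUT5, GLUT6 and GLUT8 are encoded by *Slc2a3*, *Slc2a5*, *Slc2a6* and *Slc2a8*, and GLUT5 is known as a fructose carrier. Cells that run short of nutrients or fold proteins poorly phosphorylate the translation factor eIF2α, which raises the transcription factor ATF4 and with it genes for amino acid uptake, tRNA charging and, through CHOP, cell death. Plasma cells secrete immunoglobulin in bulk and, like nearly all nucleated cells, display peptides on MHC class I molecules, whose genes are switched on by the transactivator NLRC5 at shared promoter elements.

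The sequences printed next bear on the results, and each shows the 250 bases before a gene's start in RefSeq (GRCm38.p6), 5′ to 3′ along the gene. The first are from genes of the MHC class I pathway that were lower with the 5 gRNAs, with matches to TTTCACTT, TGACG and GATTGG on either strand in capitals. The windows lie at chr17:34000348-34000597 (minus strand) for *H2-K1*, chr17:35438905-35439154 (plus strand) for *H2-Q7* and chr2:122147437-122147686 (plus strand) for *B2m*.
H2-K1: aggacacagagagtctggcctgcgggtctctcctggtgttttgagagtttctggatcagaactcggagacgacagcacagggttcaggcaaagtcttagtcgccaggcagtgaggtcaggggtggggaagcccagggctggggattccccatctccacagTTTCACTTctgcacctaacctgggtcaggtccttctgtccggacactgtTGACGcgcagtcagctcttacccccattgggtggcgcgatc
H2-Q7: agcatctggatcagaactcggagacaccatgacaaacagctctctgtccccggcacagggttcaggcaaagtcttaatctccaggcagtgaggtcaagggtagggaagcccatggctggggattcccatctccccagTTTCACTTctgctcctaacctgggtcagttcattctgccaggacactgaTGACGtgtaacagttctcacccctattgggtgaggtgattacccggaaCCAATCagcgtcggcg
B2m: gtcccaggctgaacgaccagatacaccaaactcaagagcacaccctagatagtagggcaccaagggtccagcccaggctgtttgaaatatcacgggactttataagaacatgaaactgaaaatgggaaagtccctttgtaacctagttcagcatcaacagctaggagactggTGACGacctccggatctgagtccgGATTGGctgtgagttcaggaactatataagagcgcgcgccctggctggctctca

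The others are from a pair of stress-response genes that were higher with the 5 gRNAs, with TGATGCAA on either strand in capitals. These letters are a form of the composite element that C/EBP and ATF proteins bind. The windows lie at chr7:126625471-126625720 (minus strand) for *Nupr1*, which encodes a stress-induced nuclear protein, and chr10:127351849-127352098 (minus strand) for *Inhbe*, which encodes the inhibin beta E subunit.
Nupr1: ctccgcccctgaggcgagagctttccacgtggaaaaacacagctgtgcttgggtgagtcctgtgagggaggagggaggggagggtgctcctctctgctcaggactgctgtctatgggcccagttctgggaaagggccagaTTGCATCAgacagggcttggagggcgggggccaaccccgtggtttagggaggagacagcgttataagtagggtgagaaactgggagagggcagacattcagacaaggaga
Inhbe: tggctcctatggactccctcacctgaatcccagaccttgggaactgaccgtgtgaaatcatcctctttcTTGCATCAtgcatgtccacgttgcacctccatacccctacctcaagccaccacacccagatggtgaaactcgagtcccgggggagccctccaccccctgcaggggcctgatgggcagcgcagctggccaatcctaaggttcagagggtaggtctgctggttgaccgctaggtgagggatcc

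The libraries held 21838805 to 30537105 estimated counts, and 13834 of the 53077 genes in the tables passed edgeR's filter on low counts. Levels are given below as normalised CPM (estimated counts scaled by library size and by edgeR's TMM factor). They compare a gene between samples and not genes with each other. Mitochondrial genes took 8.69, 10.5 and 6.57% of the counts in the *Slc2a1* gRNA samples and 11.1, 5.84 and 4.91% in the *Slc2a1/3/5/6/8* gRNA samples. The summed TPM of 9 plasma cell markers was between 674 and 891 in the *Slc2a1* gRNA samples and between 825 and 999 in the *Slc2a1/3/5/6/8* gRNA samples. Those of T and NK cell, erythroid and stromal markers did not exceed 1.94 in any of these 6 samples, while 8 myeloid markers summed to between 31.3 and 47.8 TPM in the *Slc2a1* gRNA samples and between 33.4 and 44.8 in the others.

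To ask what the additional deletions and the sorted line changed, edgeR's quasi-likelihood test was applied to both populations, in a fit with all 9 samples and no replicate block. Of the 13834 genes tested, 129 (0.932%) had a Benjamini-Hochberg adjusted p under 0.05, and are referred to as called. In the *Slc2a1/3/5/6/8* gRNA cultures 73 (0.528%) were higher and 56 (0.405%) were lower than in *Slc2a1* gRNA cultures. A change of at least 2-fold was seen in 32 of the higher and 21 of the lower genes. In each of the 129 genes the 3 samples of one population lay wholly above the 3 of the other. The genes were chosen by a test on these same samples, so their separation adds no support. Against control, 1885 genes (13.6%) were called with the 5 gRNAs, 996 higher (7.2%) and 889 lower (6.43%), and 534 (3.86%) with the *Slc2a1* gRNA, 267 in each direction (1.93%). The count of 534 fell to 41 and 39 without control replicate 2 or *Slc2a1* gRNA replicate 1, where 94 and 48 genes were called between the deleted populations. The count of 129 depended on single libraries. It was 48, 54 and 202 without *Slc2a1* gRNA replicates 1, 2 and 3, and 36 and 49 without *Slc2a1/3/5/6/8* gRNA replicates 2 and 3. The share of higher genes, 56.6%, was 47.6% with at least 10 counts in every sample and 42.6% without *Slc2a1* gRNA replicate 2.

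**Figure D1:**
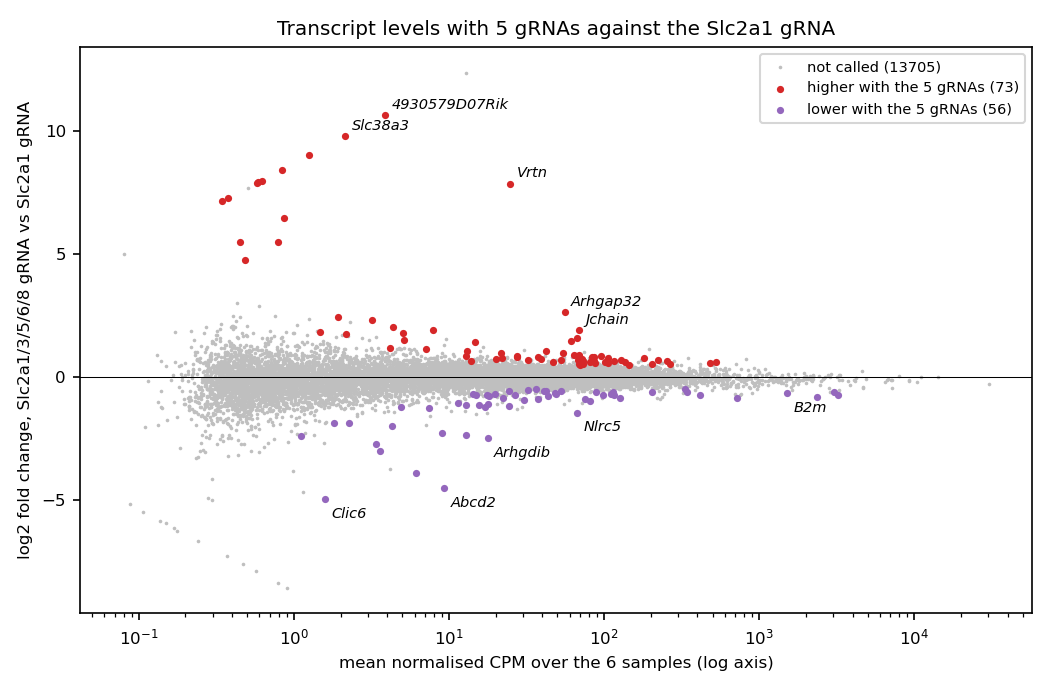
Log2 fold change between *Slc2a1/3/5/6/8* gRNA and *Slc2a1* gRNA cultures (vertical axis) against the mean normalised CPM over the 6 samples (horizontal log axis), 1 point per gene tested. The 73 higher and 56 lower called genes are coloured, and among them genes near 0 in one population, such as *4930579D07Rik* and *Slc38a3*, sit furthest from the line at 0, where the plotted value depends on the prior count of the fit.

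The targeted genes were looked at first. *Slc2a8* fell in the *Slc2a1/3/5/6/8* gRNA cultures, while the transcripts of the other 4 targets did not pass the test. *Slc2a8* was at 14.8, 15.7 and 15.4 CPM with the *Slc2a1* gRNA and at 8.25, 7.58 and 6.52 with the 5 gRNAs. Control cultures held 18.5, 17.3 and 16.2, above all 6 deleted samples. The log2 fold change between the deleted populations was -1.04 (SE 0.14, adjusted p = 0.00269). On log2(TPM + 1) or log2(TPM + 0.1) limma did not call *Slc2a8*, with an adjusted p of up to 0.294.

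*Slc2a1* itself was at 123, 98.5 and 98 CPM with its gRNA alone and at 93.3, 91.8 and 52.9 with the 5 gRNAs. The samples of the populations did not overlap, and the log2 fold change of -0.42 (SE 0.27, adjusted p = 0.443) did not pass the test, and in control cultures the gene spread from 94 to 198. With no filter on low counts *Slc2a1* was called, with an adjusted p of 0.0464. Neither *Slc2a3*, at 14.5 to 21.8 CPM with the *Slc2a1* gRNA and 18.3 to 21.9 with the 5 gRNAs, nor *Slc2a6*, at 4.67 to 7.07 and 3.68 to 4.93, was separated between the populations. Their log2 fold changes were 0.23 (SE 0.16, adjusted p = 0.504) and -0.41 (SE 0.23, adjusted p = 0.385), and for *Slc2a3* the sign turned to -0.075 when effective length was an offset. *Slc2a5* was rare throughout, at 0.337, 0.411 and 0.574 CPM with the *Slc2a1* gRNA and 1.27, 1.6 and 1.81 with the 5 gRNAs. Every sample with the 5 gRNAs lay above every other sample, although the log2 fold change of 1.80 (SE 0.45) had an adjusted p of 0.0859 in edgeR and of 0.04 in DESeq2. Against control cultures the same gene was called, at 2.64 (SE 0.47, adjusted p = 0.00378). These are levels of whole transcripts and do not measure the share of edited alleles. Of the 14 sugar transporter genes tested, including *Slc50a1* and members of *Slc5*, 1 was called, namely *Slc2a8*, beside 0.932% of all genes, and 5 had a log2 fold change above 0.

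The called genes were sorted by their own values against control cultures, which share samples with the comparison and so add no test. The largest class, 101 genes of which 60 were higher and 41 lower, was called in the same direction between *Slc2a1/3/5/6/8* gRNA and control but not between *Slc2a1* gRNA and control. These are termed added. The lack of a call with the *Slc2a1* gRNA does not show the lack of a change there. The class includes genes near the threshold, such as *Dennd2d*, with an adjusted p of 0.0814 for *Slc2a1* gRNA over control in edgeR. Another 8 genes, 3 higher and 5 lower, had already been called in the same direction with the *Slc2a1* gRNA alone and are termed extended. In a further 8, 3 higher and 5 lower, the *Slc2a1* gRNA had moved the gene the other way, and these are termed reversed. The *Slc2a1* gRNA samples stand on opposite sides of the 2 comparisons that define this class. A shift in those samples alone can therefore place a gene in it. The remaining 12 belonged to none of these. Without *Slc2a1* gRNA replicate 1 or 2 the added class held 45 or 46 genes, and without *Slc2a1/3/5/6/8* gRNA replicate 2 or 3 it held 31 or 34. The reversed class fell to 5, 1 and 2 without control replicates 1, 2 and 3, to 1 and 4 without *Slc2a1* gRNA replicates 1 and 2 and to 2 without *Slc2a1/3/5/6/8* gRNA replicate 2, and grew to 49 without *Slc2a1* gRNA replicate 3. Leaving out control replicates 1 and 2 gave 3 and 0 extended genes, leaving out *Slc2a1* gRNA replicates 1, 2 and 3 gave 0, 1 and 3, and leaving out *Slc2a1/3/5/6/8* gRNA replicates 2 and 3 gave 1 and 4.

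In the reversed class, *Jchain*, *Ddit3* and *Csn3* had fallen with the *Slc2a1* gRNA and were higher with the 5 gRNAs, and the other 5 genes, among them the chaperone gene *Hspa8*, had risen with the *Slc2a1* gRNA and were lower with the 5 gRNAs. *Jchain* encodes the joining chain of polymeric immunoglobulin. It was at 29.9, 21.8 and 34.5 CPM with the *Slc2a1* gRNA, at 126, 119 and 83.2 with the 5 gRNAs and at 77.6, 73.5 and 66.2 in controls. The populations did not overlap, and the log2 fold change was 1.92 (SE 0.18, adjusted p = 2.29e-04). Relative to controls *Jchain* fell by 1.33 with the *Slc2a1* gRNA (adjusted p = 0.00668) and rose by 0.59 with the 5 gRNAs (adjusted p = 0.0378), both on the log2 scale. *Ddit3*, which encodes the stress factor CHOP, behaved alike. Its level was 30.1, 31.2 and 38.6 with the *Slc2a1* gRNA and 118, 74 and 110 with the 5 gRNAs, on either side of the 50.8, 56.8 and 59.2 of the controls. The log2 fold change between deleted populations was 1.59 (SE 0.16, adjusted p = 4.35e-04). Both genes were called in every alternative fit and with any 1 library left out.

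*Hspa8*, the constitutive HSC70 chaperone, was at 3346, 3194 and 2417 CPM with the *Slc2a1* gRNA, at 1579, 1643 and 1881 with the 5 gRNAs and at 1663, 1750 and 1697 in controls. All samples with the *Slc2a1* gRNA were above the rest, while those with the 5 gRNAs spread around the controls, with a log2 fold change from control of -0.002. Between the deleted populations it was -0.81 (SE 0.14, adjusted p = 0.0124), a call absent from 5 of 19 alternative fits. *Cox4i2*, an isoform of a cytochrome c oxidase subunit that responds to oxygen, followed the same course at a low level, from 7.07, 6.61 and 6.84 with the *Slc2a1* gRNA to 2.79, 3.01 and 3.08 with the 5 gRNAs, where controls held 3.88, 2.15 and 2.14. The log2 fold change of *Cox4i2* was -1.21 (SE 0.26, adjusted p = 0.0466), and 12 of 19 alternative fits did not call it. *Cblc*, which encodes a ubiquitin ligase of the CBL family, fell to 4.71, 4.39 and 4.22 with the 5 gRNAs from 12.5, 9.63 and 9.43 with the *Slc2a1* gRNA. That is a log2 fold change of -1.24 (SE 0.18, adjusted p = 0.00586). *Csn3*, a casein gene that neighbours *Jchain* among tested genes on chromosome 5, rose by 0.88 (SE 0.16, adjusted p = 0.0201) on the log2 scale, from 39.9, 39.7 and 55.8 to 85.1, 91.5 and 73.5, and 6 of 19 alternative fits gave no call. The class also held *Slc25a5*, an ADP/ATP carrier of the mitochondrial inner membrane, at -0.61 (SE 0.12, adjusted p = 0.026), and *Cptp*, a ceramide-1-phosphate transfer protein, at -0.75 (SE 0.16, adjusted p = 0.0466), both named after their values were seen.

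**Figure D2:**
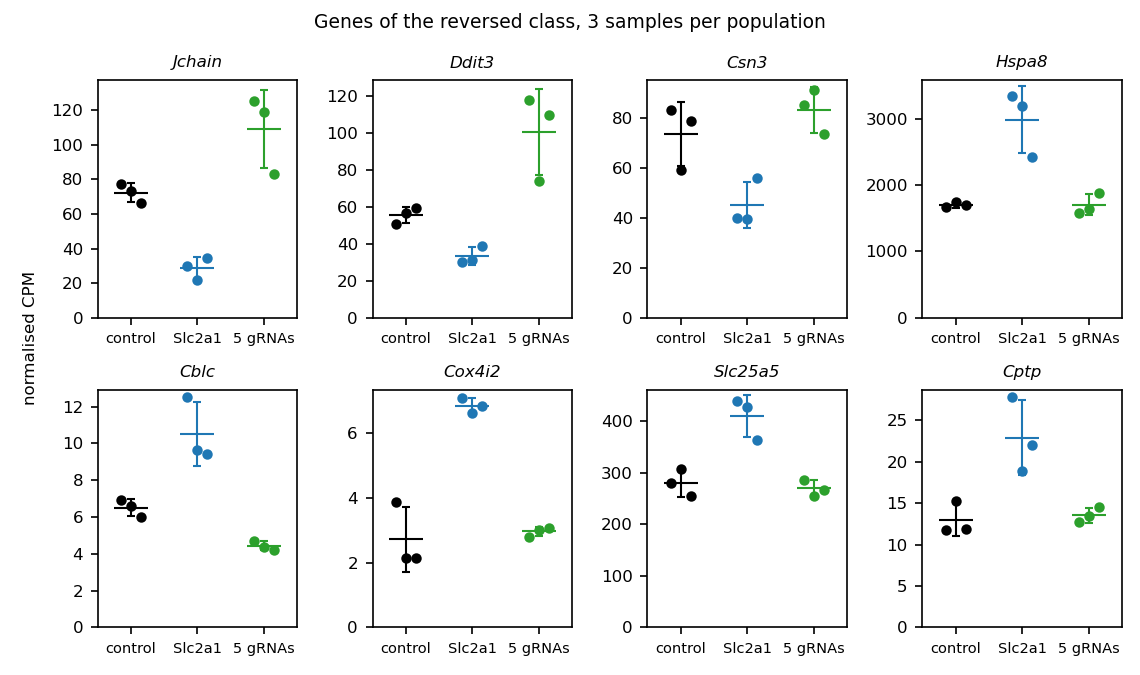
Normalised CPM (vertical axes, from 0) of the 8 reversed genes in control, *Slc2a1* gRNA and *Slc2a1/3/5/6/8* gRNA cultures, with points for samples, horizontal marks for means and bars for SD (n = 3). *Jchain*, *Ddit3* and *Csn3* are lowest with the *Slc2a1* gRNA, and the other 5 genes are highest there.

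*Ddit3* is also among the targets of ATF4, and further genes of that kind were called higher. Of 32 tested members of a list of ATF4 targets and amino acid synthesis genes, 6 rose with the 5 gRNAs over the *Slc2a1* gRNA and none fell, against 0.528% of all genes higher. Every one of the 32 had a log2 fold change above 0, with a median of 0.33, where 50.4% of all genes tested were above 0 and their median was 0.003. In the comparisons with control, 17 members rose and none fell with the 5 gRNAs (7.2% of all genes rose). With the *Slc2a1* gRNA alone 2 rose and 1 fell (1.93% of all genes in each direction). A replicate block in that comparison gave 1 higher and 1 lower. The members above 0 were 30 of 32 with effective length as an offset, 30 of 31 with a GC content offset and 29 of 32 without *Slc2a1* gRNA replicate 3. The count of 6 became 3 and 2 without *Slc2a1* gRNA replicates 1 and 2, and 2 without *Slc2a1/3/5/6/8* gRNA replicate 2 or 3. It was 2 with limma, 10 with DESeq2 and 12 with no filter on low counts.

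Besides *Ddit3*, the called members were the regulators *Nupr1*, *Trib3* and *Cebpg*, the transporter subunit *Slc3a2* and the tryptophanyl-tRNA synthetase gene *Wars*. *Nupr1* was at 65.3, 57.6 and 58.9 CPM with the *Slc2a1* gRNA, close to the 58.1, 55.6 and 50.8 of the controls, and at 118, 99.3 and 105 with the 5 gRNAs. Its log2 fold change was 0.82 (SE 0.11, adjusted p = 0.00269), and it was called in all 19 alternative fits. *Trib3* encodes a pseudokinase that restrains ATF4 signalling, and rose from 225, 176 and 190 to 345, 278 and 311, a log2 fold change of 0.66 (SE 0.13, adjusted p = 0.026). *Cebpg*, a bZIP partner of ATF4, stood at 94.9, 84 and 90.6 against 130, 133 and 164, or 0.67 (SE 0.12, adjusted p = 0.0171). *Wars* moved from 182, 156 and 152 to 228, 221 and 274, or 0.56 (SE 0.12, adjusted p = 0.0464). In each of these genes the lowest sample with the 5 gRNAs exceeded the highest of the other 6.

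*Slc3a2* encodes the heavy chain CD98 that pairs with several amino acid transporters. It was at 408, 392 and 449 CPM with the *Slc2a1* gRNA and at 669, 635 and 627 with the 5 gRNAs, while controls lay between at 461, 488 and 549. The log2 fold change was 0.63 (SE 0.11, adjusted p = 0.0156), and the call was lost in 6 of 19 alternative fits. A list of 18 amino acid transporters tested held 1 more called gene, *Slc1a4*, a carrier of neutral amino acids such as alanine and serine. Over all genes 0.528% were called higher. *Slc1a4* rose from 67.1, 63 and 73.6 to 107, 124 and 137, a log2 fold change of 0.85 (SE 0.12, adjusted p = 0.00343). No member of that list fell, and its median was 0.12. *Slc38a3*, a glutamine transporter that was not on the list, had no count in any *Slc2a1* gRNA sample and 106, 85 and 127 estimated counts with the 5 gRNAs. Measured against a floor of 3 counts per library it was at least 32.9-fold higher, and controls held 0, 1 and 1 counts.

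Other genes of the pathway were not called. *Atf4* itself had a log2 fold change of 0.33 (SE 0.12, adjusted p = 0.183), and *Asns*, the asparagine synthetase gene, of 0.19 (SE 0.10, adjusted p = 0.375). *Psat1* and *Phgdh*, enzymes of serine synthesis, had values of 0.07 and 0.05. A list of 28 unfolded protein response and ER chaperone genes had 20 members below 0 and a median of -0.11, but with limma on log2 TPM 14 lay on each side of 0. edgeR and limma called 0 of them, DESeq2 called 2 higher and 4 lower, and 11 had an unadjusted p under 0.05. With no filter edgeR called 3 in each direction, and with the replicate block 1 in each. Against control 11 of these 28 were lower and 1 higher with the 5 gRNAs, where 6.43 and 7.2% of all genes were.

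**Figure D3:**
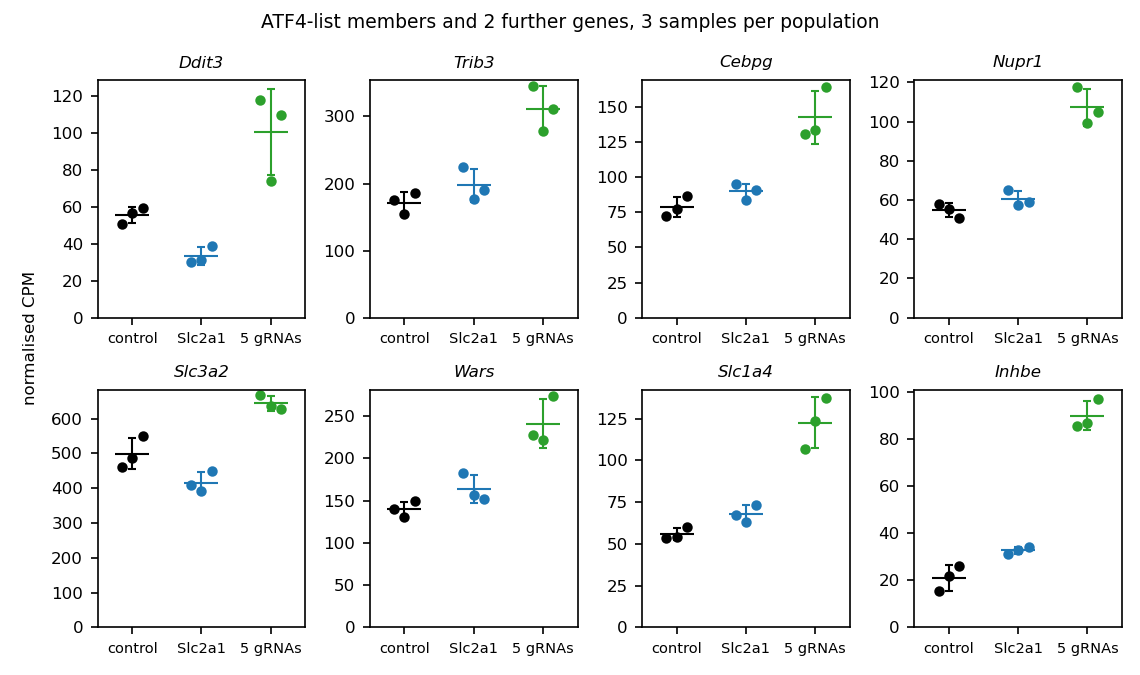
Normalised CPM (vertical axes, from 0) of the 6 called members of the ATF4 list and of *Slc1a4* and *Inhbe*, by population, with points for samples, horizontal marks for means and bars for SD (n = 3). In all 8 panels the 3 samples with the 5 gRNAs lie above the 3 samples with the *Slc2a1* gRNA and above the controls.

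*Inhbe* had the largest rise of the 3 higher genes in the extended class. It rose from 15.3, 22 and 26.1 CPM in controls to 31.4, 32.9 and 34.1 with the *Slc2a1* gRNA, and to 85.7, 87.1 and 96.9 with the 5 gRNAs. The log2 fold change between deleted populations was 1.45 (SE 0.16, adjusted p = 6.4e-04), and that of *Slc2a1* gRNA over control was 0.63 (adjusted p = 0.0439). *Parvg*, a focal adhesion adaptor of blood cells, showed the same order, at 16.1, 22 and 18.9, then 27.1, 25.6 and 29.5, then 52.2, 54.5 and 63.1. Its log2 fold change between deleted populations was 1.05 (SE 0.13, adjusted p = 0.00187). The third higher gene was *Stc2*, encoding the secreted glycoprotein stanniocalcin 2, with 29.1, 37.6 and 41.2 against 59, 74.8 and 82.3 and a log2 fold change of 1.00 (SE 0.18, adjusted p = 0.0171). *Stc2* is named after its values were seen.

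Among the lower extended genes, *Slpi*, a secreted protease inhibitor, was at 118, 61.2 and 35.3 CPM in controls, 34.7, 15 and 15.1 with the *Slc2a1* gRNA and 4.85, 5.1 and 2.98 with the 5 gRNAs. No sample of one population overlapped another, and the log2 fold change between deleted populations was -2.33 (SE 0.44, adjusted p = 0.0238). The adjusted p of *Slpi* reached 0.146 with 1 library left out. *Insig1*, which retains the sterol sensor in the ER, fell from 234, 273 and 260 in controls to 130, 127 and 176 and further to 85.2, 98.1 and 80.6. Its log2 fold change between deleted populations was -0.71 (SE 0.14, adjusted p = 0.0287), and 9 of 19 alternative fits did not call it. The other 3 lower genes of this class, *H2-Q10*, *H2-Q7* and *H2-Q5*, belong to the MHC.

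Several transcripts of the MHC class I pathway, its transactivator and light chain among them, were lower with the 5 gRNAs. Of 24 tested members of an MHC class I and II list, 7 fell and none rose, against 0.405% of all genes lower. Of these 24, 22 lay below 0, and the median log2 fold change was -0.42. Against control 16 fell with the 5 gRNAs, compared with 6.43% of all genes, and 4 fell and 1 rose with the *Slc2a1* gRNA, compared with 1.93% each way. The 7 were *Nlrc5*, *B2m*, *H2-K1*, *H2-D1*, *H2-Q4*, *H2-Q7* and *H2-T22*, while no class II gene was called. The count of 7 was 2 and 3 without *Slc2a1* gRNA replicates 1 and 2, and 1 and 2 without *Slc2a1/3/5/6/8* gRNA replicates 2 and 3. limma called 2 and the length offset left 4.

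The transactivator *Nlrc5* had the largest drop of the 7. It was at 111, 91.8 and 89.3 CPM with the *Slc2a1* gRNA, within the 87.4 to 141 of the controls, and at 31, 41.1 and 36.2 with the 5 gRNAs. The log2 fold change was -1.43 (SE 0.17, adjusted p = 0.00133). *Nlrc5* kept its call with every library left out, and limma on log2 TPM gave an adjusted p of up to 0.103. *B2m*, the light chain shared by all class I molecules, went from 1990, 1764 and 1812 to 1284, 1224 and 1052, a log2 fold change of -0.64 (SE 0.12, adjusted p = 0.0185). *H2-K1* and *H2-D1* encode classical heavy chains. *H2-K1* was at 4082, 3924 and 3987 with the *Slc2a1* gRNA and at 2880, 2276 and 2125 with the 5 gRNAs, a log2 fold change of -0.72 (SE 0.13, adjusted p = 0.0185). *H2-D1* was at 3737, 3500 and 3711 and at 2818, 2364 and 2111, or -0.59 (SE 0.12, adjusted p = 0.0464). For *B2m*, *H2-K1* and *H2-D1* the *Slc2a1* gRNA alone gave log2 fold changes from control of -0.09, -0.13 and -0.15, none of them called.

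Heavy chain genes outside the list were also called lower. Over all 13 class I heavy chain genes tested, a set drawn up after values were seen, 8 fell, none rose, 12 lay below 0 and the median was -0.71, where 0.405% of all genes fell. The 8 became 4 without *Slc2a1* gRNA replicate 1 or 2, 2 and 4 without *Slc2a1/3/5/6/8* gRNA replicates 2 and 3, 3 with limma and 5 with the length offset. The non-classical *H2-T22* was at 106, 91.9 and 91.7 CPM with the *Slc2a1* gRNA and at 61.1, 53.1 and 44.9 with the 5 gRNAs, a log2 fold change of -0.87 (SE 0.15, adjusted p = 0.0169) that was lost in 6 of 19 alternative fits. *H2-T10*, its neighbour in kind and annotated as a polymorphic pseudogene, went from 26.3, 31.4 and 28.1 to 17.9, 15.7 and 13.9 (-0.85, SE 0.13, adjusted p = 0.00602). *H2-Q7*, whose product is a Qa-2 antigen, had already fallen with the *Slc2a1* gRNA, from 1506, 1439 and 1383 in controls to 913, 907 and 960, and stood at 610, 508 and 423 with the 5 gRNAs. The step between deleted populations was -0.85 (SE 0.13, adjusted p = 0.00781). *H2-Q10* followed the same course from 65.6, 58.6 and 58.9 through 31, 39.8 and 30.9 to 17.9, 15.7 and 11.9, and the step was -1.17 (SE 0.15, adjusted p = 0.00269). *H2-Q5*, a polymorphic pseudogene in the annotation, had a step of -0.96 (SE 0.15, adjusted p = 0.00781), and *H2-Q4* one of -0.71 (SE 0.15, adjusted p = 0.0412). Salmon divides reads between such near-identical genes, which leaves the value of any 1 *H2* gene uncertain.

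Genes that load peptides onto class I molecules did not pass the test. *Tap1*, a subunit of the peptide transporter of the ER, had a log2 fold change of -0.52 (SE 0.12, adjusted p = 0.0663), *Tap2* of -0.01 and *Tapbp*, the loading chaperone tapasin, of 0.06. The immunoproteasome subunits *Psmb8* and *Psmb9* had values of -0.29 and -0.38, with adjusted p of 0.277 and 0.272 in the edgeR test. A list of interferon-stimulated genes was counted alongside. Of 29 tested, 1 rose and none fell, where 0.528% of all genes rose and 0.405% fell. Of these 29, 21 lay above 0, against 50.4% of all genes, and the median was 0.25. The one that rose was *Gbp3*, an interferon-inducible GTPase, from 1.06, 0.821 and 1.07 CPM to 2.31, 3.86 and 3.83. This was a log2 fold change of 1.76 (SE 0.38, adjusted p = 0.0473), and 11 of 19 alternative fits did not call it.

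**Figure D4:**
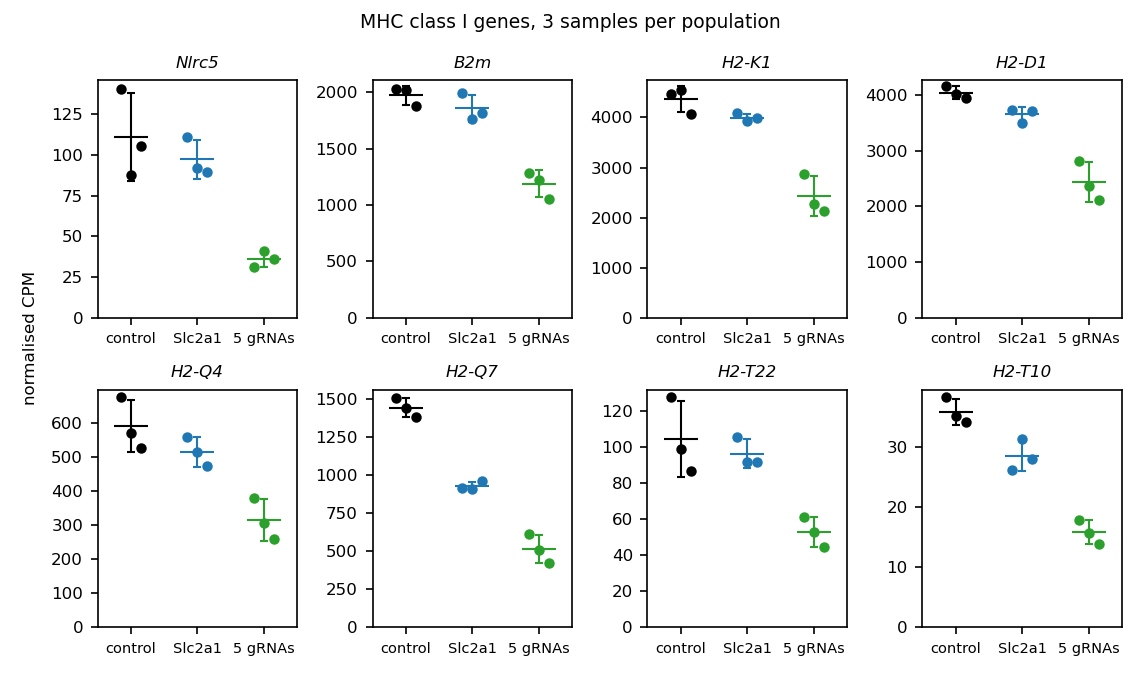
Normalised CPM (vertical axes, from 0) of *Nlrc5*, *B2m* and 6 class I heavy chain genes, by population, with points for samples, horizontal marks for means and bars for SD (n = 3). In all 8 genes the 3 samples with the 5 gRNAs lie below the other 6, and in *H2-D1*, *H2-Q7* and *H2-T10* the *Slc2a1* gRNA samples also lie below the controls.

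Of the 8 called heavy chain genes, 6 had a promoter window in the RefSeq table, *H2-K1*, *H2-D1*, *H2-Q4*, *H2-Q7*, *H2-Q10* and *H2-T22*. TTTCACTT, a form of the interferon-stimulated response element, was found in 6 of the 6 and in 1.36% of all 32851 windows of this length. TGACG, the core letters of the X2 box of MHC promoters, was in 5 of the 6 and in 17.8% of all windows. GATTGG, a form of the Y box letters, was in 4 of the 6 and in 14.6% of all windows. It was also in 3 of 6 windows of the higher stress genes, those of *Ddit3*, *Cebpg* and *Inhbe*. The shorter ATTGG, which stands in lower case in the windows of *H2-K1* and *H2-Q7*, was not searched. A window without GATTGG may therefore still hold a Y box. Both strands were searched, the motifs do not overlap in the windows printed above, and these 6 genes are related copies, so their windows are not independent. In *H2-K1* TTTCACTT began 90 and TGACG 41 bases before the start, and in *H2-Q7* the distances were 113 and 64 bases. The window of *B2m* held TGACG 78 and GATTGG 54 bases before the start. The motifs were chosen with the called genes known. Heavy chain genes that were tested and not called were not counted apart, so the matches do not set the called genes off from their family. TGATGCAA was in 0.791% of all windows and, of 6 windows for the called ATF4 list genes and *Inhbe*, in those of *Nupr1* and *Inhbe*. A match of letters is a description and not a site of binding.

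Some genes were near silent with the *Slc2a1* gRNA and clearly present with the 5 gRNAs. There were 14 genes with at most 3 estimated counts in each *Slc2a1* gRNA sample and at least 10 in each *Slc2a1/3/5/6/8* gRNA sample. Of these 13 were called, 9 were at 0 in all 3 *Slc2a1* gRNA samples, and 10 also had at most 3 counts in every control. Over all genes 0.932% were called. The limits were set on the same samples that the test compares, so calls were made likely by the choice of these 14 genes and add no support. The most abundant was *4930579D07Rik*, a long non-coding RNA gene on chromosome 17. It had 0 counts in all 6 samples of the other populations and 198, 164 and 208 with the 5 gRNAs. Against a floor of 3 counts per library this is at least 59.4-fold higher (adjusted p = 2.1e-04). *Vrtn*, a developmental gene that sets the number of vertebrae, was just above that floor. It was at 0.385, 0.137 and 0.123 CPM with the *Slc2a1* gRNA and at 47.5, 54.4 and 46.8 with the 5 gRNAs, a log2 fold change of 7.86 (SE 0.34, adjusted p = 6.2e-08), and controls did not exceed 0.314.

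The same pattern at lower counts was seen in genes of varied function. *Ptpn13*, a protein tyrosine phosphatase gene, had 0 counts in the 6 other samples and 13, 28 and 48 with the 5 gRNAs, at least 9.09-fold higher than the floor. *Ccdc7a* likewise had 0 in those 6 samples and 31, 57 and 33 with the 5 gRNAs, at least 13-fold higher. *Cacna1c*, which encodes a voltage-gated calcium channel subunit, had 0, 0 and 1 counts with the *Slc2a1* gRNA and 27, 51 and 49 with the 5 gRNAs, a ratio of 119 with an exact 95% interval of 21 to 4743 that covers counting error only. *Tnik*, a kinase gene, had 0, 2 and 0 counts against 29, 34 and 53, and *Trpc7*, a cation channel gene, had 1, 0 and 1 against 18, 23 and 28. The others were *Acp7*, *B230364G03Rik*, *Bfsp1*, *Gm15262*, *Gm5624*, *Gm5976* and *Platr16*, the last with an adjusted p of 0.0884. In the opposite direction 2 pseudogenes, *Gm48128* and *Gm6611*, met the same limits, with adjusted p of 0.0653 and 0.126 in the edgeR test. *Clic6* came close, at 120, 33 and 49 counts with the *Slc2a1* gRNA against 0, 3 and 4 with the 5 gRNAs. Its log2 fold change was -4.96 (SE 0.90, adjusted p = 0.0185), and it is named after its values were seen. *Abcd2*, a peroxisomal fatty acid transporter gene, lay outside these limits, with 13, 20 and 25 counts with the 5 gRNAs. *Abcd2* was at 28.8, 10.5 and 14.3 CPM with the *Slc2a1* gRNA and 0.567, 0.886 and 0.886 with the 5 gRNAs. The difference was -4.50 on the log2 scale (SE 0.46, adjusted p = 4.35e-04). It is named after its values were seen, since its mean of 3.81 TPM with the *Slc2a1* gRNA was under the 5 TPM set for the ranking.

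Ranked by fold change among genes of at least 5 TPM, the higher genes were led by *4930579D07Rik*, *Vrtn* and *Arhgap32*. *Arhgap32* was at 14, 12.9 and 19 CPM with the *Slc2a1* gRNA, within reach of the 11.2 to 16.3 of the controls, and at 63.8, 98.7 and 126 with the 5 gRNAs (2.65, SE 0.24, adjusted p = 2.1e-04). *Arhgdib* moved the other way. From 41.7, 24.2 and 24.6 it fell to 5.98, 5.98 and 4.5, a log2 fold change of -2.46 (SE 0.31, adjusted p = 0.00187), and both genes kept their call in all 19 alternative fits.

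*Crisp3*, a cysteine-rich secretory protein gene, rose from 2.69, 2.37 and 4.79 CPM to 14.2, 13.9 and 9.5 (1.92, SE 0.29, adjusted p = 0.00723). Its neighbour *Crisp1* on chromosome 17 was called in the same direction, with a log2 fold change of 2.46. *Mtss1*, which encodes an actin- and membrane-binding protein, stood at 4.76, 7.34 and 11.6 against 17.9, 25.4 and 21 (1.43, SE 0.30, adjusted p = 0.0426). *Dennd2d*, a Rab guanine nucleotide exchange factor gene, stood at 11, 6.39 and 7.7 against 15.9, 16.3 and 20.7 (1.08, SE 0.23, adjusted p = 0.0466). Both were close to the threshold, and 9 of 19 alternative fits did not call *Mtss1* and 11 did not call *Dennd2d*. In controls *Dennd2d* was at 6.46, 3.9 and 4.07 CPM, and its log2 fold change with the *Slc2a1* gRNA over control was 0.79, not called without the replicate block.

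On the lower side *1700012B07Rik* came first, with 8.03, 4.38 and 5.33 CPM against 1.09, 0.532 and 1.06 with the 5 gRNAs (-2.71, SE 0.40, adjusted p = 0.00602). *Dync1i1*, an intermediate chain of cytoplasmic dynein, fell from 9.86, 17 and 18.1 to 3.27, 3.1 and 2.91 (-2.28, SE 0.25, adjusted p = 8.35e-04). Both were called in all 19 alternative fits. *Laptm5*, a lysosomal membrane protein of blood cells, was at 31.2, 18.2 and 22.2 and at 9.91, 11 and 10.3 (-1.20, SE 0.25, adjusted p = 0.0456). *Ssh3*, a slingshot phosphatase gene, was at 18.2, 22.2 and 12.5 and at 8.42, 6.78 and 8.93 (-1.13, SE 0.23, adjusted p = 0.0353). For *Laptm5* 10 and for *Ssh3* 7 of 19 alternative fits gave no call.

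Lists of metabolic and cell cycle genes held few calls between the deleted populations, where 0.528% of all genes were higher and 0.405% lower. Of 22 glycolysis genes tested, edgeR called 6 higher with the *Slc2a1* gRNA than in control, where 1.93% of all genes were higher, and 9 with the replicate block. With the 5 gRNAs 1 was higher and 1 lower than in control, a share no larger than the 13.6% of all genes, and 0 were called between the deleted populations. In that last comparison 18 of the 22 lay below 0, with a median of -0.32, and 10 had an unadjusted p under 0.05, while DESeq2 and limma also called 0 and edgeR with no filter called 5 lower. With limma on log2(TPM + 1) 15 of the 22 lay below 0 and the median was -0.18. *Hk2*, the inducible hexokinase, gave 1.06 (adjusted p = 0.00934) with the *Slc2a1* gRNA over control and 0.60 (adjusted p = 0.031) with the 5 gRNAs over control. Its log2 fold change between the deleted populations was -0.46 (SE 0.17, adjusted p = 0.182). *Ldha*, the lactate dehydrogenase A gene, gave 1.10, 0.57 and -0.52 in the same order, with an adjusted p of 0.243 for the last.

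Of 24 cholesterol genes tested, 13 had fallen with the *Slc2a1* gRNA and 18 with the 5 gRNAs relative to control, and 2 rose in each. Over all genes 1.93 and 6.43% fell. Between the deleted populations 1 was called, *Insig1*, which was lower, beside 0.405% of all genes lower. In that comparison 20 lay below 0 and the median was -0.26. The 1 became 3 with DESeq2, 6 with no filter and 2 with the replicate block, and 0 with limma, with total counts or without any 1 of the *Slc2a1/3/5/6/8* gRNA replicates, *Slc2a1* gRNA replicate 1 or 3 or control replicate 2. *Hmgcs1*, an early enzyme of the pathway, had log2 fold changes from control of -1.17 with the *Slc2a1* gRNA and -1.69 with the 5 gRNAs, and -0.51 (SE 0.18, adjusted p = 0.173) between them. Of 29 genes of DNA replication and mitosis, 14 fell below control with the 5 gRNAs and none rose, while 6.43% of all genes fell. With the *Slc2a1* gRNA edgeR called 0, and 1 with the replicate block. Between the deleted populations 26 of the 29 lay below 0, with a median of -0.22. edgeR and limma called 0 of them there, DESeq2 called 5 and 12 had an unadjusted p under 0.05. Other edgeR fits called 5 with no filter, 3 with the replicate block, and 1 each with at least 10 counts in every sample or without control replicate 3. *Cdc45*, a replication factor gene that was not on the list and is named after its values were seen, was called lower, at 69.5, 54.8 and 56.1 CPM with the *Slc2a1* gRNA and 36.6, 38.6 and 36.4 with the 5 gRNAs (-0.69, SE 0.14, adjusted p = 0.0314). *Aurkb*, a mitotic kinase, had a log2 fold change of -0.48 (SE 0.11, adjusted p = 0.0617). In the hexosamine and N-glycan list 1 of 29 was called, next to 0.932% of all genes, *Gnpnat1*, which acetylates glucosamine-6-phosphate. It rose from 56.1, 54 and 58.9 CPM to 96.8, 78.6 and 94.5 (0.68, SE 0.11, adjusted p = 0.0106), and 6 of 19 alternative fits did not call it. Among the 9 plasma cell markers *Jchain* was the single call, 8 lay above 0 and the median was 0.21, and *Xbp1*, *Irf4* and *Prdm1*, transcription factors that define the cell type, had log2 fold changes of -0.08, 0.05 and 0.21.

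**Figure D5:**
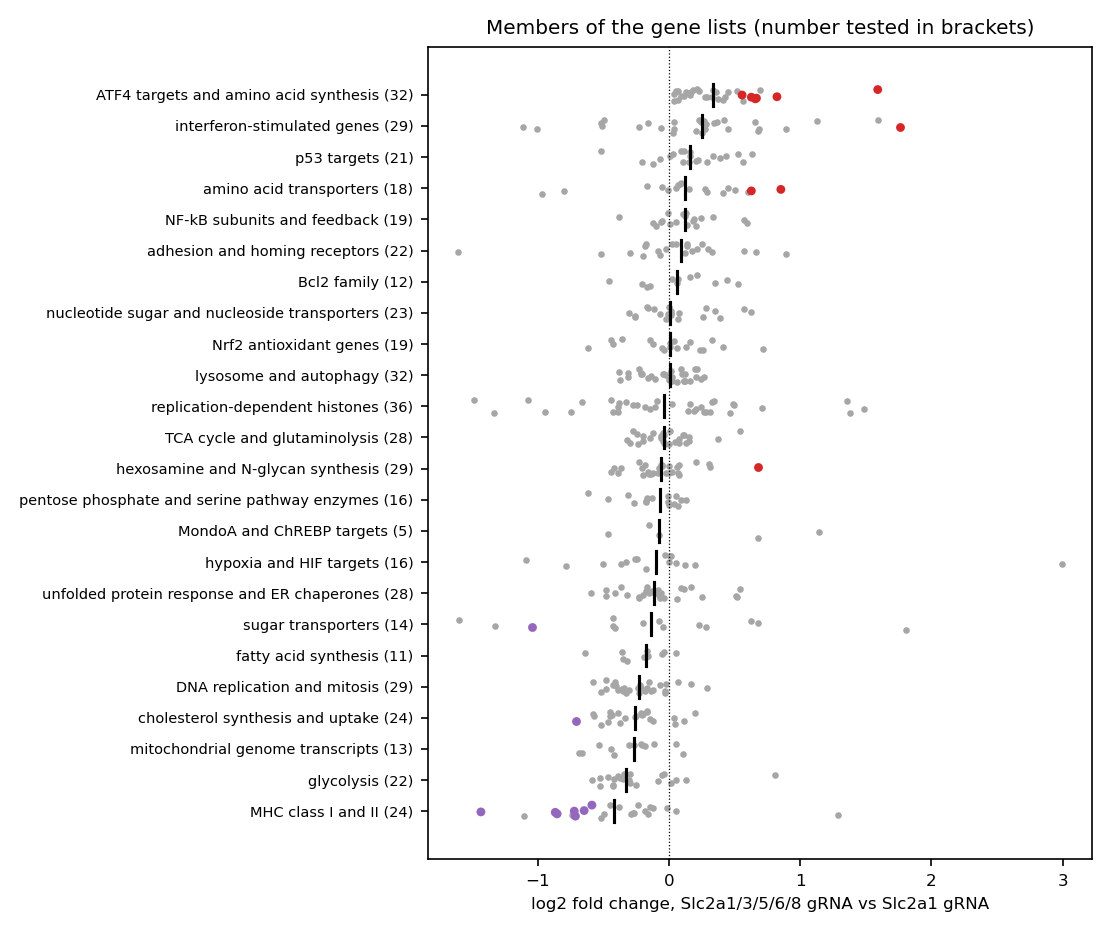
Log2 fold change between *Slc2a1/3/5/6/8* gRNA and *Slc2a1* gRNA cultures (horizontal axis) for the tested members of 24 gene lists, with red and purple points for members called higher and lower, grey points for the rest and black bars for list medians. The ATF4 list, at a median of 0.33, and the MHC list, at -0.42, stand at the ends and hold 6 and 7 called members.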

How the data were processed

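RNA was sequenced from 3 control gRNA, 3 *Slc2a1* gRNA and 3 *Slc2a1/3/5/6/8* gRNA 5TGM1-Cas9 cultures, grouped by the titles in their labels. cDNA was primed with oligo-dT. The authors mapped paired reads with Salmon 1.5.1 (version per the submitters' processing notes) on the Galaxy platform. The annotation and build are not given in the sources used here. They deposited a table per sample with an estimated count, a TPM value, and a length and effective length for each of 53077 genes. Salmon splits reads between similar transcripts, which left 47.7% of non-zero estimates fractional, and they were rounded.

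edgeR 4.0.16 in R 4.3.3 was run with TMM normalization, its default filter and the quasi-likelihood test, with one coefficient per group over all 9 samples, with Benjamini-Hochberg adjusted p-values over 13834 genes. Standard errors were derived from the F statistic. The deposited TPM values ranked and filtered genes and entered limma 3.58.1. The effective lengths that the authors deposited served as an offset in an alternative. Gene positions and GC content came from GENCODE M21 on GRCm38 by symbol, and promoter windows from RefSeq. The scripts were tested on simulated data.

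A rule named the 5 targets, and the 10 highest and 10 lowest called genes. The highest and lowest genes had to reach 5 TPM on average in one population, with samples that did not overlap. The rule also named up to 3 called members per gene list, and up to 5 genes each of the reversed and extended classes. Other genes given above, such as *Trib3*, *Cebpg*, *Wars*, *Crisp1* and *Aurkb*, were not picked by this rule. Class I pathway genes outside the rule, such as *B2m* and *Tap1*, were chosen after values were seen. A gene list and the member it named are not reported here. The comparison, lists and genes were chosen with earlier results of these data known. Deviations of same-numbered samples correlated at 0.15, 0.11 and 0.22 between control and *Slc2a1* gRNA, which by the rule of all pairs above 0.1 pairs these samples, so this comparison was also fitted with a replicate block. Alternatives were DESeq2 1.42.0, a replicate block, other normalization, filters, units and offsets, and leaving out each sample. Counts of list members under each alternative, and that block used alone, were added after the data were seen. Figures were drawn with matplotlib 3.10.9.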

Additional observations from a re-analysis of the deposited data

How the results depend on the processing

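The count of 129 genes between the deleted populations was 464 with DESeq2 (120 shared with the 129), 799 with no filter on low counts (129 shared), 35 with limma on log2(TPM + 1), 36 on log2(TPM + 0.1) and 71 with effective length as an offset. Total count normalization gave 97, a GC content offset 109, at least 10 counts in every sample 124 and only the 2 groups compared 149. In the same order as the first 5 settings, the added class of 101 held 268, 435, 28, 29 and 57 genes, and the reversed class of 8 held 48, 118, 2, 1 and 4. Leaving out 1 sample gave between 36 and 202 called genes, 31 to 124 added and 1 to 49 reversed. The causes were not tested.

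The replicate numbers did not pair the deleted populations, since deviations of same-numbered samples correlated at -0.11, -0.03 and -0.04 (mean -0.06, against 0.03 for different numbers). With the replicate block 319 genes were called, including all 129, with 222 added and 24 reversed. Numbers did go together between control and *Slc2a1* gRNA samples, and there the block gave 642 genes in place of 534. With the block in that comparison alone the classes held 100 added, 8 reversed and 9 extended genes, 1 ATF4 list member rose in place of 2, and no class member named above lost its call. *Dennd2d* moved from added to extended, since its adjusted p for *Slc2a1* gRNA over control went from 0.0814 to 0.0485 in edgeR.

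Between *Slc2a1/3/5/6/8* gRNA and control the count of 1885 was 417 and 377 with limma on log2(TPM + 1) and log2(TPM + 0.1), 1216 with the length offset and 661 to 1958 with 1 sample left out. The share of higher genes, 52.8%, was 38.4% with total count normalization, 24.2 and 23.9% with limma and 64.2% with the GC content offset. Between *Slc2a1* gRNA and control the count of 534 was 1147 with DESeq2, 1197 with no filter, 32 and 28 with limma, 183 with the length offset and 39 to 785 with 1 sample left out. There the share of higher genes, 50%, was 23.4% with total counts, where the median log2 fold change of all genes was -0.10, 15.6 and 21.4% with limma, with medians of -0.11 and -0.16, and 77.2% with the GC offset, with a median of 0.10.

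Of the 33 called genes that the naming rule picked, none changed direction in any fit. All 33 kept their call with DESeq2, the replicate block, no filter and only the 2 groups, while limma lost 18 and 19, total counts 6, the length offset 6 and the GC offset 4. *Slc2a3*, which was not called, went from 0.23 to -0.075 with the length offset. With 3 samples a group the error of rare genes stayed large, as with the SE of 0.45 for *Slc2a5*.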
